A study of Homo sapiens with 16 samples.

Results

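Neurotensin (NTS), its receptor NTSR1 and the granins SCG2 and SCG5 are 4 of the 18227 genes measured here in A549 and H2023, human cell lines grown from non-small cell lung carcinomas. They were taken as the table rows that carry these 4 symbols, all 4 of which were found. The choice was made with results of these data known, so values of knockout against wild-type libraries are counted among those the genes were selected on. Wild-type cells and cells labelled as a ZC3H12A knockout were compared in each line, after 3 days of normal culture or 7 days of a stem-cell-enriched (oncosphere) culture, called enriched culture from here on, which gives 8 groups of 2 libraries each. ZC3H12A encodes Regnase-1, an RNase that degrades a set of mRNAs. The knockout libraries of a line came from 1 named clone, so a difference from wild type holds the edit together with whatever else sets that clone apart, and culture type and days in culture change together.

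Neurotensin is a short peptide made mainly in the gut and brain. It is cut from a larger precursor inside secretory granules, and it signals through NTSR1, a receptor coupled to the G protein Gq, which activates phospholipase C and raises calcium in the cell. Some carcinomas, lung carcinomas among them, make neurotensin and its receptor. Granins are acidic proteins packed into dense-core granules, the vesicles that endocrine and nerve cells store peptides in. SCG2 (secretogranin II) is the precursor of the peptide secretoneurin, and SCG5 (the protein 7B2) is a chaperone of the prohormone convertase PCSK2.

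In GRCh38 coordinates of the GENCODE annotation, NTS (ENSG00000133636) lies on the + strand of chromosome 12 at 85874295 to 85882992, and NTSR1 (ENSG00000101188) on the + strand of chromosome 20 at 62708837 to 62762771. SCG2 (ENSG00000171951) lies on the - strand of chromosome 2 at 223596940 to 223602503, and SCG5 (ENSG00000166922) on the + strand of chromosome 15 at 32641676 to 32697098. All are annotated as protein-coding. A RefSeq promoter table (GRCh38.p14) matched 3 of the 4 genes, all but SCG2. The 250 bases before the RefSeq start are shown for NTS, the gene with the highest levels here, and for NTSR1, its receptor, because peptide and receptor start from windows of unlike composition. Capitals mark matches to the motifs searched.
NTS promoter, chr12:85874045-85874294, + strand: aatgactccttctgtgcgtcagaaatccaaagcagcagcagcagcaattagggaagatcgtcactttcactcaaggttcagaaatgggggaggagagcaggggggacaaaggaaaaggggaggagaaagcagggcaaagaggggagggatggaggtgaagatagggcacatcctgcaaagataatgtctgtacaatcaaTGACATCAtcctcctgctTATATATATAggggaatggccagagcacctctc
NTSR1 promoter, chr20:62708586-62708835, + strand: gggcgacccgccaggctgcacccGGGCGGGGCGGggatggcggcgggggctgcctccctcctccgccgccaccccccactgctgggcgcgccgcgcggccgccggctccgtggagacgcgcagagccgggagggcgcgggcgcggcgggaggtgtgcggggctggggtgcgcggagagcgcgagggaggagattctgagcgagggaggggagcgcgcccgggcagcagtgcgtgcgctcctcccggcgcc
The NTS window is 49.2% G or C with 2 CpG, and the NTSR1 window is 82.0% G or C with 38 CpG. Among the 35116 promoters of the table, 30.3% have a lower share of G and C than NTS and 98.3% a lower share than NTSR1. The search covered both strands for TGANTCA (an AP-1 element), TGACGTCA (a cAMP response element), TGACNTCA (which includes the former), TATATA and GGGCGG (a GC box). NTS holds 1 match to TGACNTCA, TGACATCA at 51 to 44 bases before the start, and 3 overlapping matches to TATATA between 33 and 24 bases before it. NTSR1 holds 2 overlapping matches to GGGCGG, at 227 to 222 and 222 to 217 bases before the start. In windows of the same length, TGACNTCA was found in 6.87% of promoters, TATATA in 3.73%, GGGCGG in 42.6%, TGANTCA in 6.57% and TGACGTCA in 1.65%. These matches describe letters only.

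Expression is given as TPM, the authors' measure of transcript abundance, scaled for transcript length and for the total of each library. Being per length, levels can be set side by side between genes, but TPM keeps no record of sequencing depth. The depth behind each value is therefore unknown, and a value of 0 means only that the gene was listed at 0. ZC3H12A mRNA was lower in the knockout-labelled libraries only in A549 normal culture (18.4 ± 2.14 against 32.8 ± 2.94 TPM, SD, n = 2 each) and was higher in them in the other 3 comparisons, so groups are called by their label. The labels do not say whether replicates came from separate cultures, and a test then measures only the spread between these libraries. Genes of the mitochondrial genome took up 10.3% to 18.7% of the TPM of a normal-culture library and 19.5% to 25.6% of an enriched one. All 6 markers of carcinoma epithelium were measured, as were 4 of 10 neuroendocrine markers (SYP, CHGA, CHGB and DDC). NAPSA was the 1 lineage marker of 4 measured, and its level stayed at or under 6.03 TPM in every library.

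The 4 genes differed widely in level and range (see the plot of levels by library). NTS ran from 0.32 to 4469.15 TPM over the 16 libraries with a median of 34.2 TPM, and reached 1 TPM in 11 of them. SCG2 ran from 0.18 to 67.04 TPM with a median of 1.27 TPM and reached 1 TPM in 9 libraries. NTSR1 had a median of 0.285 TPM and reached 1 TPM in 2 libraries, both from H2023 cells labelled knockout in normal culture. SCG5 never passed 1.94 TPM and reached 1 TPM in 5 libraries. In the enriched wild-type A549 libraries NTS stood at ranks 20 and 22 among the 18227 genes.

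**Figure D1:**
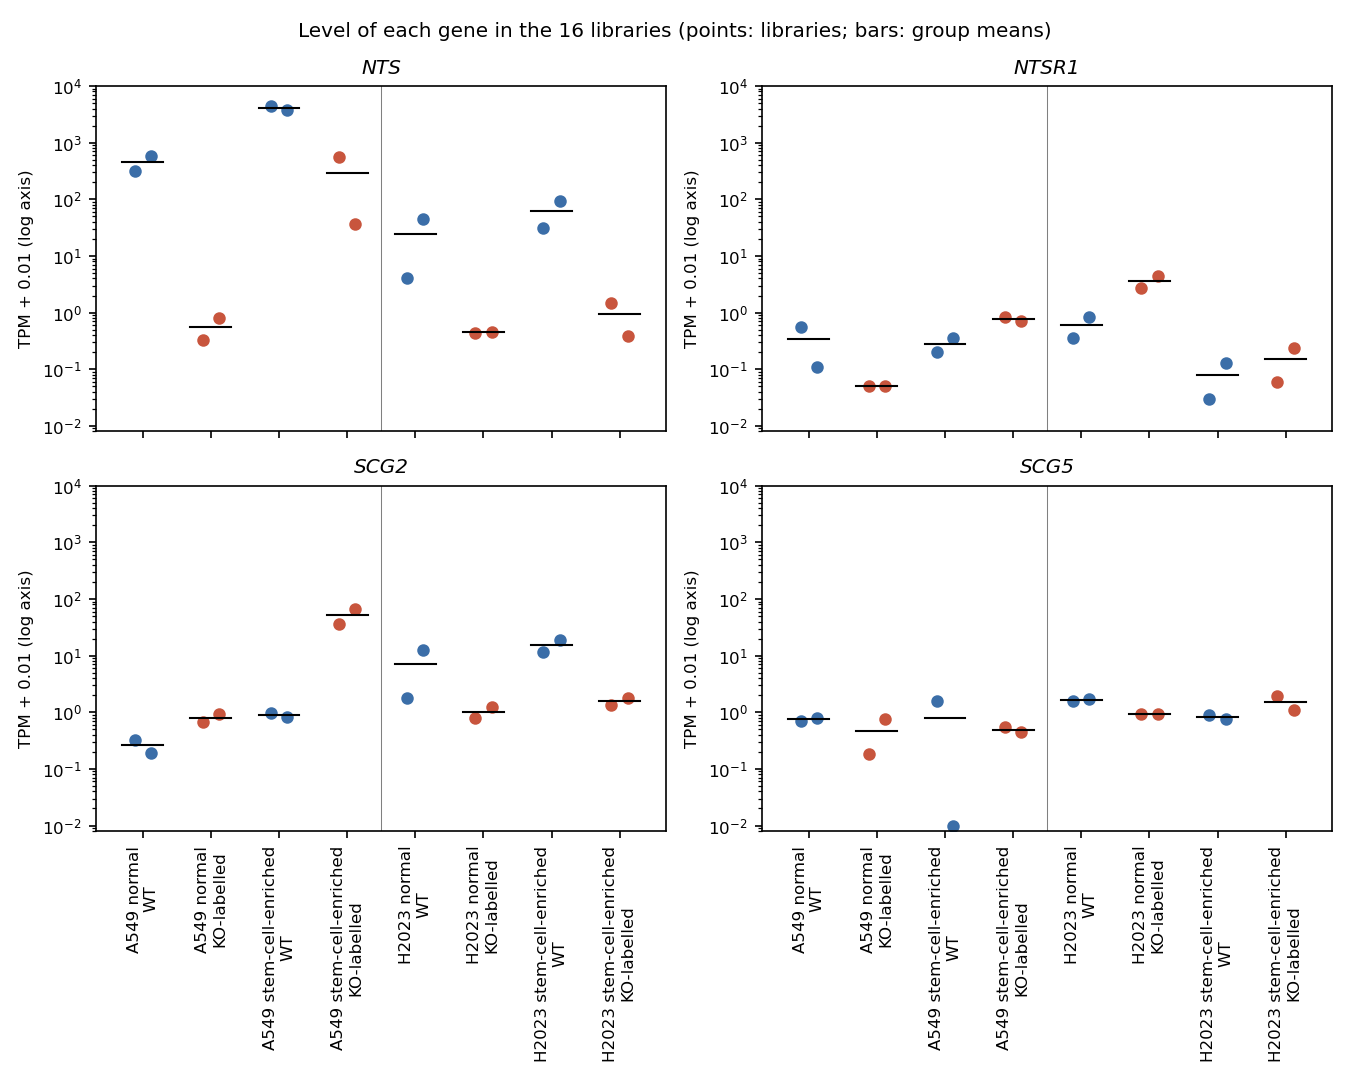
Level of each gene in the 16 libraries, as TPM + 0.01 on a log axis, with points for libraries and bars for group means. NTS spans the widest range, from 0.32 to 4469.15 TPM, and lies under 1.5 TPM in 3 of the 4 groups labelled knockout. SCG2 is highest in the A549 enriched knockout-labelled libraries (35.57 and 67.04 TPM), and SCG5 is listed at 0 in 1 A549 enriched wild-type library.

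Values in knockout-labelled libraries against wild type were known when these genes were chosen, so they are given as a description with no test. In A549 normal culture NTS stood at 319.54 and 581.72 TPM in wild type and at 0.32 and 0.78 TPM in the knockout-labelled libraries. In A549 enriched culture the wild-type libraries held 4469.15 and 3729.82 TPM and the knockout-labelled libraries 551.78 and 37.12 TPM. Within each A549 culture the knockout-labelled libraries were thus the lower ones, with no overlap. The 2 enriched knockout-labelled libraries lay 14.9-fold apart, and the higher of them stood above one of the normal wild-type libraries. In bulk RNA, fewer cells that make neurotensin and less NTS mRNA per cell cannot be told apart.

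In wild type, H2023 cells held less NTS than A549 cells in each culture. Normal culture gave 4.04 and 44.36 TPM in wild type, 11.0-fold apart, and 0.43 and 0.45 TPM in the knockout-labelled libraries. Enriched culture gave 31.32 and 92.62 TPM in wild type and 1.47 and 0.37 TPM in the knockout-labelled libraries. Both groups labelled knockout lay under both wild-type groups, which was not so in A549. In normal culture the knockout-labelled libraries of the 2 lines overlapped in level. Replicates over 4-fold apart were rare at large. They made up 0.419% of the genes that reached 5 TPM in a replicate of the H2023 normal wild-type group, and 0.242% in the A549 enriched group labelled knockout.

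On the log2(TPM + 1) scale, the difference of NTS (knockout-labelled libraries minus wild type) was -8.14 with a standard error of 0.31 in A549 normal culture and -4.81 (standard error 1.19) in A549 enriched culture. It was -3.39 (standard error 1.12) in H2023 normal culture and -4.90 (standard error 0.64) in H2023 enriched culture. The direction was the same in the 4 comparisons, but the size rested on single libraries in 2 of them. In A549 enriched culture the difference was -6.74 without replicate 1 labelled knockout and -2.89 without replicate 2. In H2023 normal culture it was -1.81 without wild-type replicate 2 and -4.98 without wild-type replicate 1. The authors' deposited tables give NTS log2 fold changes of -9.48, -3.83, -5.61 and -6.09 in the same order of comparisons, with standard errors of 0.69, 1.27, 1.45 and 1.11.

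NTSR1, the receptor, was low throughout. In H2023 normal culture it stood at 0.35 and 0.84 TPM in wild type and at 2.75 and 4.47 TPM in the knockout-labelled libraries, its highest values. In H2023 enriched culture it stood at 0.02 and 0.12 TPM in wild type and 0.05 and 0.23 TPM in the knockout-labelled libraries. The groups were apart in normal culture and overlapped in the enriched one, while NTS was lower in the knockout-labelled libraries in both.

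In A549, NTSR1 held 0.55 and 0.10 TPM in normal wild-type libraries and 0.04 TPM in both knockout-labelled libraries. Enriched culture gave 0.19 and 0.34 TPM in wild type and 0.83 and 0.71 TPM in the knockout-labelled libraries. The A549 groups thus stood in opposite order in the 2 cultures, at levels under 1 TPM. The differences on the log2(TPM + 1) scale were -0.33 and 0.49 in A549 normal and enriched culture, and 1.52 and 0.09 in H2023. The authors' deposited tables give NTSR1 log2 fold changes of -2.65, 1.64, 2.63 and 1.00, with standard errors of 1.18, 0.64, 0.43 and 1.43.

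SCG2, the secretoneurin precursor, differed in opposite directions in the 2 lines. In A549 enriched culture it stood at 0.97 and 0.83 TPM in wild type and at 35.57 and 67.04 TPM in the knockout-labelled libraries. In A549 normal culture the values were 0.32 and 0.18 TPM in wild type and 0.65 and 0.94 TPM in the knockout-labelled libraries. Knockout-labelled libraries were thus the higher ones in both A549 cultures, with high levels only in the enriched one.

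In H2023 normal culture SCG2 held 1.74 and 12.35 TPM in wild type, 7.1-fold apart, and 0.79 and 1.24 TPM in the knockout-labelled libraries. In H2023 enriched culture it held 11.48 and 18.83 TPM in wild type and 1.31 and 1.77 TPM in the knockout-labelled libraries. Knockout-labelled libraries were the lower ones in both H2023 cultures. The differences of SCG2 on the log2(TPM + 1) scale were 0.52 and 4.72 in A549 normal and enriched culture, and -1.59 and -2.64 in H2023. The H2023 normal value was -0.45 without wild-type replicate 2 and -2.74 without wild-type replicate 1. The authors' deposited tables give SCG2 log2 fold changes of 1.61, 5.99, -2.76 and -3.37, with standard errors of 0.78, 0.36, 1.24 and 0.37.

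SCG5, the 7B2 chaperone, was at or under 1.94 TPM everywhere. A549 normal culture gave 0.68 and 0.79 TPM in wild type and 0.17 and 0.75 TPM in the knockout-labelled libraries. A549 enriched culture gave 1.58 TPM and a listed 0 in wild type, and 0.53 and 0.44 TPM in the knockout-labelled libraries. The wild-type pair there spans the other group, and the difference of -0.11 on the log2(TPM + 1) scale was -0.80 without wild-type replicate 2 and 0.57 without wild-type replicate 1. In H2023 normal culture SCG5 held 1.57 and 1.71 TPM in wild type and 0.94 and 0.91 TPM in the knockout-labelled libraries. In H2023 enriched culture it held 0.89 and 0.75 TPM in wild type and 1.94 and 1.08 TPM in the knockout-labelled libraries. The H2023 groups did not overlap, and their order turned with the culture.

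In the authors' deposited tables, 1 of 3 of these genes with an adjusted p-value was past 0.05 in A549 normal culture (NTS, lower), where 22.1% of all genes were. In A549 enriched culture 3 of 4 were (NTSR1 and SCG2 higher, NTS lower), against 20.7% of all genes. H2023 normal culture had 2 of 4 (NTSR1 higher, NTS lower), against 10.8% of all genes. H2023 enriched culture had 2 of 3 (NTS and SCG2, both lower), against 5.07%. NTS is 1 of 54 genes that passed lower in all 4 tables, 0.366% of the 14753 genes with an adjusted p-value in each. Nothing is read from these shares, since such values led to the choice of genes.

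**Figure D2:**
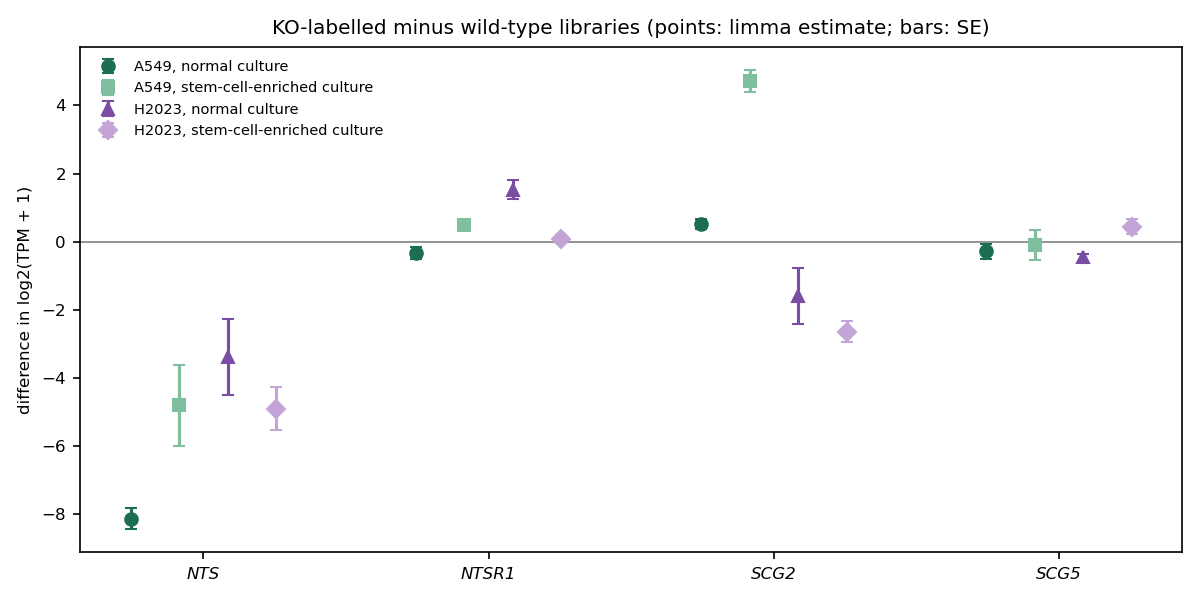
Difference between knockout-labelled libraries and wild-type libraries in log2(TPM + 1) for each gene, with points for the limma estimate of each line and culture and bars for its standard error. NTS lies under 0 in the 4 comparisons (-3.39 to -8.14). SCG2 lies above 0 in A549 (0.52 and 4.72) and under 0 in H2023 (-1.59 and -2.64).

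The second set of comparisons set enriched against normal culture within a line and genotype. It was tested with limma over the 8 libraries of each line on log2(TPM + 1), two-sided, with Benjamini-Hochberg adjustment over all 18227 genes. These comparisons use the same libraries as those above, so their p-values are not free of the way the genes were chosen. The 2 comparisons within a line share an estimate of the spread. In A549, NTS rose with the enriched culture in both genotypes. Wild-type libraries went from 319.54 and 581.72 to 4469.15 and 3729.82 TPM, a log2 difference of 3.24 (SE 1.00, limma adjusted p = 0.0327). Knockout-labelled libraries went from 0.32 and 0.78 to 551.78 and 37.12 TPM, a log2 difference of 6.57 (SE 1.00, limma adjusted p = 0.00319). Enriched libraries were the higher ones in each, with no overlap. The wild-type call turned on which libraries were in the fit. It was lost on leaving out any 1 of the 4 wild-type libraries or of the 2 normal-culture knockout-labelled libraries. It was kept without either enriched knockout-labelled library, where the standard error fell to 0.28. Those libraries enter the wild-type comparison only through the shared spread. Over all these fits the log2 difference ran from 2.81 to 3.67.

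In H2023 neither NTS difference passed the test. Wild-type libraries went from 4.04 and 44.36 to 31.32 and 92.62 TPM, a log2 difference of 1.86 (SE 1.02, limma adjusted p = 0.241), and the groups overlapped. The value rested on the 2 unlike normal wild-type libraries: it was 3.45 without replicate 2 (limma adjusted p = 0.0444) and 0.28 without replicate 1 (limma adjusted p = 0.832). In the H2023 knockout-labelled libraries NTS stayed under 1.5 TPM in both cultures, with a log2 difference of 0.35 (limma adjusted p = 0.836). Whether the culture difference differs between lines or genotypes was not tested.

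NTSR1 passed the culture test in the knockout-labelled libraries of both lines, in opposite directions, and did not pass in wild type. In A549 it rose from 0.04 TPM in both normal libraries to 0.83 and 0.71 TPM, a log2 difference of 0.77 (SE 0.17, limma adjusted p = 0.0167). That call was lost without any 1 of the 4 libraries compared (adjusted p from 0.0547 to 0.0874). In H2023 it fell from 2.75 and 4.47 to 0.05 and 0.23 TPM, a log2 difference of -1.99 (SE 0.23, limma adjusted p = 0.00222). In wild type the log2 differences were -0.05 in A549 and -0.56 in H2023 (limma adjusted p = 0.847 and 0.131). The difference between genotypes or lines was itself not tested.

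SCG2 rose with the enriched culture in the A549 knockout-labelled libraries, from 0.65 and 0.94 to 35.57 and 67.04 TPM, a log2 difference of 4.80 (SE 0.29, limma adjusted p = 0.000156). In A549 wild type it went from 0.32 and 0.18 to 0.97 and 0.83 TPM, a log2 difference of 0.61 (SE 0.29, limma adjusted p = 0.13). With a pseudocount of 0.1 in place of 1 that difference was 1.54 and passed (adjusted p = 0.0159). It also passed without either enriched library labelled knockout (adjusted p = 0.0381 and 0.0351). In H2023 the log2 differences of SCG2 were 1.38 in wild type and 0.34 in the knockout-labelled libraries (limma adjusted p = 0.204 and 0.764). The wild-type value was 2.52 without normal wild-type replicate 2 (limma adjusted p = 0.0247) and 0.24 without replicate 1 (limma adjusted p = 0.705).

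SCG5 passed in no culture comparison, with log2 differences of -0.11 and 0.05 in A549 wild-type and labelled-knockout libraries and -0.54 and 0.36 in H2023 (limma adjusted p = 0.847, 0.947, 0.0797 and 0.187). The H2023 wild-type value of -0.54 passed without either enriched library labelled knockout (adjusted p = 0.0339 and 0.0365). The H2023 value in knockout-labelled libraries was 0.61 (adjusted p = 0.0496) without enriched replicate 2 labelled knockout. The A549 wild-type value was -0.79 (adjusted p = 0.0464) without enriched wild-type replicate 1, the comparison that then rests on the library listed at 0.

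By limma, 1 of the 4 genes passed in A549 wild type, where 40.6% of all genes did, and 3 of 4 in the A549 knockout-labelled libraries, against 20.8%. In H2023 wild type 0 of 4 passed by limma (2 at an unadjusted p under 0.05, as 36.4% of all genes), against 21.4% of all genes, and 1 of 4 in the knockout-labelled libraries, against 26.9%. In H2023 the median log2 difference of all genes was -0.18 in wild type and -0.12 in the knockout-labelled libraries. The share of called genes that were higher in enriched culture was 18.5% and 28.6% there, and 51.5% and 50.9% after median-ratio rescaling. In A549 wild type the rescaling moved that share from 46.8% to 58.5%. It changed no call of the 4 genes. The larger mitochondrial share of enriched libraries runs along with each culture difference, and its part in them was not tested.

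Marker genes moved with culture as well, and their part in the culture differences of the 4 genes was not tested. Of the 6 epithelial markers, 3 rose by limma in A549 wild type (EPCAM, KRT19 and CDH1), and 4 rose and 1 fell in the A549 knockout-labelled libraries. In H2023 the keratins KRT8, KRT18 and KRT7 fell in both genotypes and KRT19 rose in the knockout-labelled libraries. Of all genes, 19.0% rose in A549 wild type, and 10.9% rose and 9.87% fell in the A549 knockout-labelled libraries. In H2023 17.4% of all genes fell in wild type, and 19.2% fell and 7.68% rose in the knockout-labelled libraries. The summed level of the list went from 9350 and 9170 to 6670 and 7540 TPM in A549 wild type and from 5010 and 2570 to 5660 and 7830 TPM with the knockout label. In H2023 it went from 9400 and 8750 to 4330 and 4570 TPM in wild type and from 13000 and 12300 to 7770 and 8270 TPM with the knockout label. CD68, a leukocyte marker, rose in A549 wild type (log2 difference 1.79, limma adjusted p = 0.00136). PECAM1, an endothelial marker, rose in both A549 genotypes, from at most 0.1 TPM to 2.76 and 1.77 TPM in wild type and 0.63 and 0.81 TPM with the knockout label. LUM, a fibroblast marker, rose in A549 wild type from 0.27 and 0.11 to 3.53 and 1.07 TPM (limma adjusted p = 0.01). Among neuroendocrine markers CHGB rose in both A549 genotypes and in the H2023 knockout-labelled libraries, and DDC in the A549 knockout-labelled libraries.

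**Figure D3:**
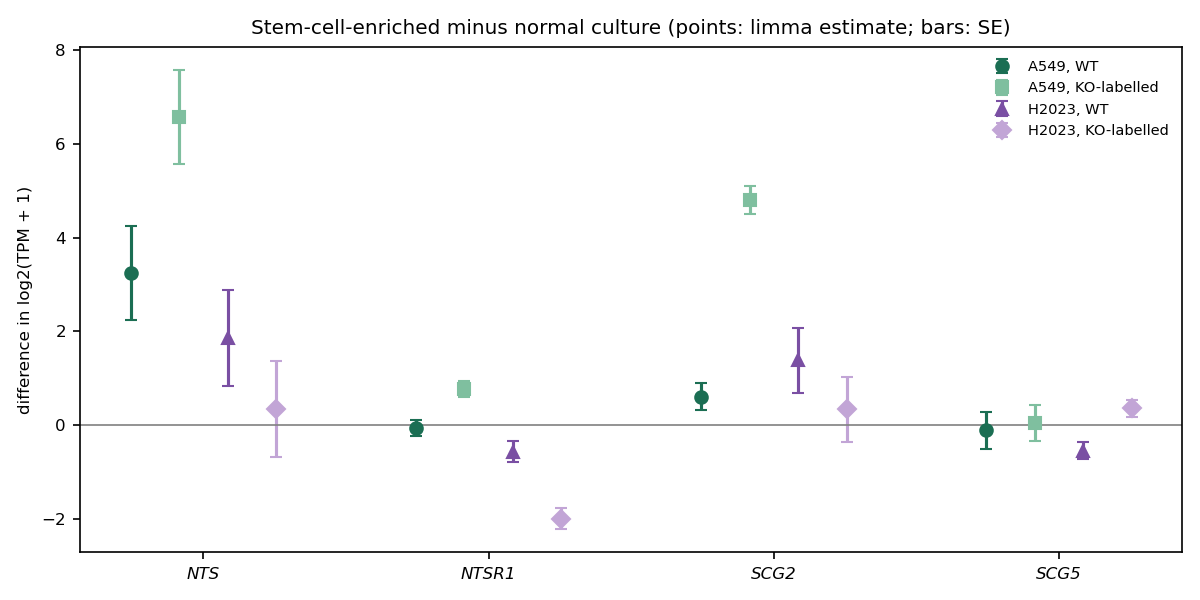
Difference between enriched and normal culture in log2(TPM + 1) for each gene, with points for the limma estimate in each line and genotype and bars for its standard error. NTS shows its largest differences in A549, at 6.57 in knockout-labelled libraries and 3.24 in wild type. NTSR1 lies at 0.77 in A549 and -1.99 in H2023 knockout-labelled libraries, and SCG2 at 4.80 in A549 knockout-labelled libraries.

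Ordered by mean level, NTS was highest in A549 enriched wild type (4100 ± 523 TPM, SD, n = 2), above every other group. A549 normal wild type followed (451 ± 185 TPM) and overlapped with A549 enriched knockout-labelled libraries (294 ± 364 TPM), whose range also reached that of H2023 enriched wild type. Next came H2023 enriched and normal wild type (62.0 ± 43.3 and 24.2 ± 28.5 TPM), which overlapped with each other. The remaining 3 groups, all labelled knockout, held 0.92, 0.55 and 0.44 TPM. They overlapped among themselves and not with the groups above them. SCG2 followed another order. A549 enriched knockout-labelled libraries came first (51.3 ± 22.3 TPM), then H2023 enriched wild type (15.2 ± 5.20 TPM) and H2023 normal wild type (7.04 ± 7.50 TPM), which overlapped, with A549 normal wild type last (0.25 ± 0.099 TPM). The groups between held 0.795 to 1.54 TPM. For NTSR1 the H2023 normal knockout-labelled libraries (3.61 ± 1.22 TPM) stood clear of the next group, A549 enriched knockout-labelled libraries (0.77 ± 0.0849 TPM), and every later neighbour overlapped. For SCG5 the order ran from H2023 normal wild type (1.64 ± 0.099 TPM) to A549 normal knockout-labelled libraries (0.46 ± 0.41 TPM), and the first group overlapped with the next, H2023 enriched knockout-labelled libraries (1.51 ± 0.608 TPM).

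The genes whose log2(TPM + 1) profile over the 16 libraries lay closest to that of each gene were sought among genes with at least 5 TPM in at least 2 libraries. Libraries of a group share their cells and culture, and the correlations are descriptions. For NTS they were DEFB1, PDIA6, PDE1C, NPY1R and COQ9 (Pearson r from 0.903 to 0.954). DEFB1, an antimicrobial defensin, was the closest. It went from 14.36 and 24.48 TPM in A549 normal wild type to 0.30 and 0 TPM in the knockout-labelled libraries, and from 162.88 and 95.21 to 13.95 and 19.15 TPM in enriched culture. NPY1R, a receptor of neuropeptide Y, stood at 32.94 and 40.42 TPM in A549 enriched wild type and 2.23 and 2.11 TPM in the knockout-labelled libraries. PDIA6, an enzyme of disulfide bond formation in the endoplasmic reticulum, varied far less, from 236.7 to 459.25 TPM. For SCG2 they were S1PR1, HLA-DPB1, SEPTIN9, ZMAT3 and ORMDL1 (r from 0.866 to 0.886). S1PR1, a receptor of sphingosine 1-phosphate, reached 5.10 and 6.23 TPM in the A549 enriched knockout-labelled libraries, against 0.81 and 1.44 TPM in wild type. For NTSR1 they were SRP14, ANO1, COMMD3, AFAP1L2 and OSBP2 (r from 0.796 to 0.836). ANO1, a calcium-activated chloride channel, held 10.39 and 13.60 TPM in the H2023 normal knockout-labelled libraries and 2.51 and 1.31 TPM in wild type. For SCG5 the 3 with a symbol among 5 were GJD3-AS1, IFRD1 and ALG14 (r from 0.763 to 0.787).

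Other genes of neurotensin and granin biology were taken from lists and compared in the same fits. Between genotypes limma called 10.8% of all genes in A549 normal culture (4.54% higher and 6.28% lower in knockout-labelled libraries) and 13.2% in A549 enriched culture (6.04% higher and 7.2% lower). These calls rested on all 4 libraries: leaving out any 1 left 0 calls among all genes in normal culture, and 0 to 38 in enriched culture. In H2023 limma called 0.0% of genes in either culture (18.2% and 15.5% at an unadjusted p under 0.05; 1665 and 816 genes in the authors' deposited tables). The sorting receptors SORT1 (sortilin) and SORL1 bind neurotensin and carry cargo within the cell; NTSR2, the third gene of that list, was not analysed here. By limma both fell in the A549 normal knockout-labelled libraries. SORT1 went from 4.04 and 4.62 to 1.65 and 0.69 TPM (log2 difference -1.33, adjusted p = 0.0426) and SORL1 from 7.80 and 6.23 to 1.60 and 1.02 TPM (log2 difference -1.80, adjusted p = 0.0164). Both were also lower in the A549 enriched knockout-labelled libraries, with no overlap. There SORT1 went from 8.40 and 6.81 to 4.69 and 3.47 TPM and SORL1 from 6.61 and 5.14 to 4.93 and 3.23 TPM. These differences of -0.76 and -0.45 did not pass limma (adjusted p = 0.0828 and 0.296). They are past 0.05 in the authors' deposited tables (adjusted p = 2.92e-06 and 0.0236). In H2023, SORT1 stood the other way round, at 5.37 and 4.52 TPM in normal wild type and 13.25 and 8.96 TPM in the knockout-labelled libraries, and, in the same order, at 6.75 and 6.32 against 13.18 and 13.22 TPM in enriched culture. Those groups did not overlap, and the differences of 1.01 and 0.91 did not pass limma (adjusted p = 0.192 and 0.228) but are past 0.05 in the authors' deposited tables (adjusted p = 5.02e-07 and 6.56e-05). The enriched A549 knockout-labelled libraries were higher than the normal ones for both, at 4.69 and 3.47 TPM for SORT1 and 4.93 and 3.23 TPM for SORL1 (limma adjusted p = 0.012 and 0.0152). Neither culture call held without normal replicate 2 or without enriched replicate 1 labelled knockout, where 0 of the pair passed.

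Among 4 measured granins beside SCG2 and SCG5 (of 5 listed), 2 rose with enriched culture in A549 in each genotype, while 19.0% of all genes rose and 21.6% fell in wild type, and 10.9% rose and 9.87% fell in the knockout-labelled libraries. CHGB, chromogranin B, went from 7.81 and 21.06 to 92.00 and 139.82 TPM in wild type and from 10.73 and 6.93 to 103.73 and 91.96 TPM in knockout-labelled libraries (log2 differences 3.04 and 3.35, limma adjusted p = 0.000766 and 0.00125). PCSK1N, an inhibitor of the convertase PCSK1, rose too (log2 differences 1.44 and 0.85). Between genotypes the log2 differences of CHGB in A549 were -0.53 and -0.21 and did not pass (limma adjusted p = 0.479 and 0.551). The A549 count in knockout-labelled libraries was 1 without normal replicate 2 or enriched replicate 1 labelled knockout. In the H2023 knockout-labelled libraries 2 granins rose (CHGB and PCSK1N) and 1 fell (VGF), but 0 rose without any 1 of the 4 knockout-labelled libraries, 1 rose without either normal wild-type library, and 0 fell in those fits or after median-ratio rescaling. In H2023 wild type the log2 differences were 0.55 for CHGB and 0.71 for PCSK1N (limma adjusted p = 0.371 and 0.425).

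The prohormone convertases and the enzymes that finish peptides cut precursors such as that of neurotensin and trim or cap the products. Of 9 measured (of 10), 8 rose with enriched culture in A549 wild type, and in the knockout-labelled libraries 6 rose and 1 fell (PAM, which amidates peptides, a call lost without either normal or without enriched replicate 2 labelled knockout). The median log2 differences of the list were 1.44 and 1.15, against -0.01 for all genes in each. Of all genes, 19.0% rose in A549 wild type, and 10.9% rose and 9.87% fell in the knockout-labelled libraries. PCSK5, which rose in both, stayed at or under 0.92 TPM in A549. PCSK2, the convertase that SCG5 serves, was not measured. CPE, carboxypeptidase E, went from 7.24 and 9.52 to 66.63 and 42.14 TPM in wild type (log2 difference 2.54, limma adjusted p = 0.000221). QPCT, which forms the pyroglutamate that neurotensin starts with, went from 42.82 and 30.91 to 148.89 and 105.21 TPM in wild type (log2 difference 1.75) and from 16 and 12.76 to 159.49 and 85.53 TPM in knockout-labelled libraries (log2 difference 2.95, limma adjusted p = 0.000687). PCSK6 went from 4.78 and 4.02 to 43.38 and 47.27 TPM in knockout-labelled libraries (log2 difference 3.10). In H2023 2 rose in each genotype (CPE and CPD), with medians of 0.26 and 0.23, while 3.96% of all genes rose in wild type and 7.68% in the knockout-labelled libraries. Those H2023 counts fell without some single libraries of the line and were kept without others. Without any 1 library of the line, 6 to 8 rose in A549 wild type and 5 or 6 in knockout-labelled libraries.

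Of 15 measured genes of dense-core granules and regulated exocytosis (of 17), 9 rose in A549 wild type with enriched culture, and 8 rose in the knockout-labelled libraries, against 19.0% and 10.9% of all genes. HID1, which acts in the formation of dense-core granules, went from 5.72 and 6.12 to 39.13 and 34.88 TPM in A549 wild type (log2 difference 2.46, limma adjusted p = 0.000259). RAB26, a GTPase of secretory vesicles, rose in the 4 culture comparisons, by log2 differences of 1.41 and 1.99 in A549 and 1.32 and 1.44 in H2023. The A549 counts were 5 without enriched wild-type replicate 2 and 4 without enriched replicate 1 labelled knockout. H2023 showed 4 that rose and 1 that fell in wild type, and 5 that rose and 3 that fell in knockout-labelled libraries. Of all genes, 3.96% rose and 17.4% fell in wild type there, and 7.68% rose and 19.2% fell in knockout-labelled libraries. The number that fell with the knockout label was 1 after median-ratio rescaling and 0 without any of 3 knockout-labelled libraries (normal replicate 1 and both enriched ones). The number that rose in H2023 was 2 in wild type without normal wild-type replicate 2, and 3 in knockout-labelled libraries without normal replicate 2 of that label. HID1 was lower in knockout-labelled libraries in both A549 cultures by limma (log2 differences -1.21 and -1.88), while RAB27A and SNAP25 were higher in both. In H2023 RAB27A, a GTPase of granule exocytosis, stood the other way round, with 28.35 and 30.72 TPM in normal wild type and 20.48 and 21.51 TPM under the knockout label and, in enriched culture, 26.80 and 31.15 against 19.23 and 18.75 TPM. Those groups did not overlap, and the differences of -0.47 and -0.58 did not pass limma (adjusted p = 0.17 and 0.233) but are past 0.05 in the authors' deposited tables (adjusted p = 0.00523 and 0.0478). The H2023 groups of SNAP25 overlapped in both cultures.

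Of 5 measured peptidases that cut neurotensin (of 6), 4 fell with enriched culture in each H2023 genotype, against 17.4% and 19.2% of all genes that fell. In A549, 3 fell and 1 rose in wild type, and 2 fell and 1 rose in knockout-labelled libraries, while 21.6% of all genes fell and 19.0% rose in the former and 9.87% fell and 10.9% rose in the latter. NLN, neurolysin, fell in the 4 comparisons, for instance from 54.33 and 53.22 to 17.84 and 21.52 TPM in H2023 knockout-labelled libraries (log2 difference -1.41, limma adjusted p = 0.00109). THOP1, thimet oligopeptidase, fell from 98.90 and 95.69 to 35.26 and 44.93 TPM in A549 wild type (log2 difference -1.27). ACE, a peptidase better known for angiotensin, was the one that rose in A549, from 0.07 and 0.08 to 2.82 and 1.87 TPM in wild type. After rescaling 3 fell in each H2023 genotype and 2 in A549 wild type. The A549 count in knockout-labelled libraries was 0 without enriched replicate 1 labelled knockout and 1 without either normal one.

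**Figure D4:**
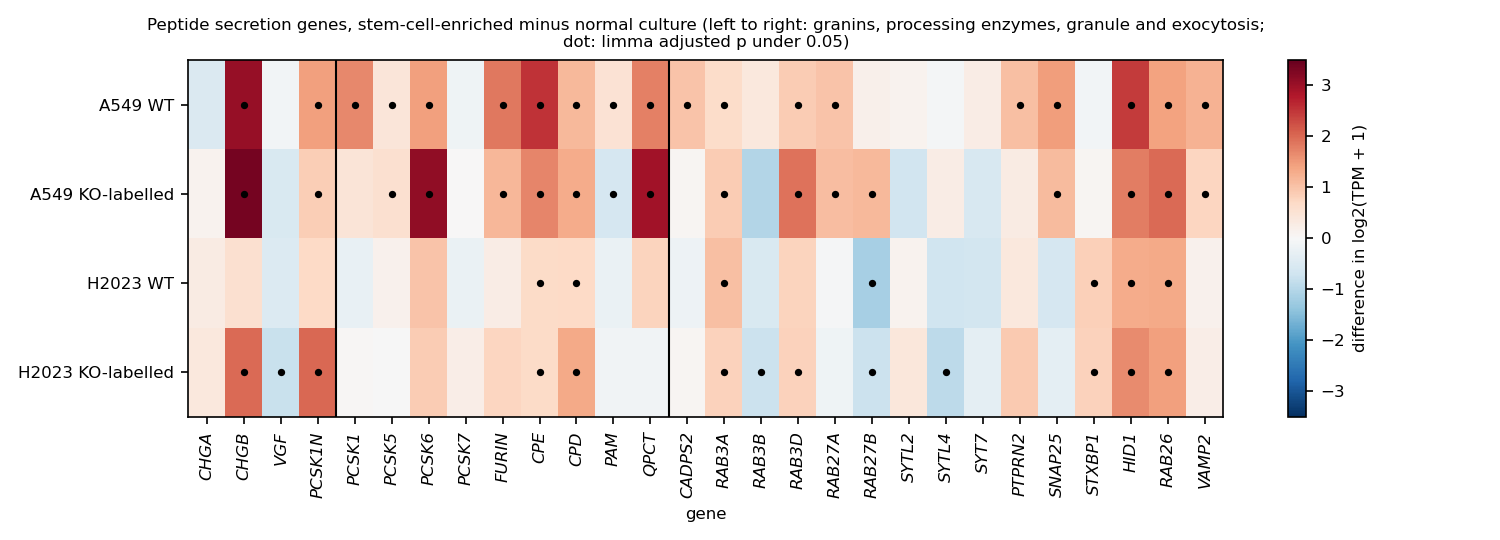
Difference between enriched and normal culture in log2(TPM + 1), as colour, for the 28 measured granins, processing enzymes and granule genes (columns, in that order) in each line and genotype (rows), with a dot where the limma adjusted p is under 0.05. Both A549 rows hold more red cells with a dot than the H2023 rows, with 8 processing enzymes that rose in A549 wild type and 2 in H2023 wild type.

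Of the 12 genes of the Gq and phospholipase C path below NTSR1, all measured, few passed. PLCB1, a phospholipase C, was lower in the knockout-labelled libraries in both A549 cultures, from 3.64 and 3.65 to 0.78 and 0.90 TPM in normal culture (log2 difference -1.34, limma adjusted p = 0.0164). PRKCA was higher in them in normal culture (log2 difference 0.66, limma adjusted p = 0.0435) and ITPR2 in enriched culture (log2 difference 1.42, limma adjusted p = 0.0189). Thus 1 of the 12 was called higher and 1 lower in each A549 culture. Of all genes, 4.54% were higher and 6.28% lower in normal culture, and 6.04% and 7.2% in enriched culture. With enriched culture 1 rose and 2 fell in A549 wild type, 1 fell in A549 knockout-labelled libraries, and 4 and 3 fell in H2023 wild-type and knockout-labelled libraries. Of all genes, 21.6%, 9.87%, 17.4% and 19.2% fell in these comparisons, so the numbers that fell lay near those shares except in H2023 wild type. After rescaling 2 fell in each H2023 genotype. Without single libraries of a comparison the numbers that fell went to as few as 0 in each A549 genotype and 1 in each H2023 genotype. PRKCE, a protein kinase C, fell in the 4 culture comparisons, by log2 differences of -0.94, -0.79, -1.13 and -1.68.

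Some markers of epithelium and of other cell types also differed between genotypes, and their part in the values of the 4 genes was not tested. Of the 6 epithelial markers, limma called 0 between genotypes in either H2023 culture. The authors' deposited tables call 2 higher and 1 lower in the H2023 normal knockout-labelled libraries, where 10.8% of all genes were called. In H2023 enriched culture they call 2 higher and 0 lower, against 5.07%. In A549 enriched culture 2 of 6 fell by limma in the knockout-labelled libraries, against 7.2% of all genes. In A549 normal culture 4 of 6 fell by limma in them, against 6.28% of all genes. The summed level of the list there was 9350 and 9170 TPM in wild type and 5010 and 2570 TPM in the knockout-labelled libraries. DDC, a neuroendocrine marker, fell there from 18.76 and 17.65 to 0.16 and 0.87 TPM (limma adjusted p = 0.00615) and in enriched culture from 20.21 and 15.26 to 1.93 and 2.03 TPM. The summed level of the 4 measured neuroendocrine markers was 114 and 160 TPM in A549 enriched wild type and 108 and 99.0 TPM in the knockout-labelled libraries, most of it CHGB. The 2 measured fibroblast markers of 4 summed to 1.32 to 9.96 TPM over the 16 libraries, and the 1 measured endothelial marker of 3, PECAM1, ran from 0 to 2.76 TPM. CD68, the 1 measured leukocyte marker of 3, fell in A549 enriched culture from 178.89 and 117.45 to 44.49 and 29.66 TPM in knockout-labelled libraries, and ran from 28.7 to 45.9 TPM in A549 normal culture.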

How the data were processed

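Per the labels' protocols, 1 µg of RNA isolated with ReliaPrep went into each TruSeq stranded library. HISAT2, StringTie and GRCh38 stand in the submitters' processing notes, without versions. Each of the 4 deposited tables (1 per line and culture, 18361 rows, 18227 genes after 119 repeated identifiers with identical values) holds TPM per library, computed by the authors. Their further deposited columns are a normalized mean signal over 4 libraries, a log2 fold change and its standard error, a score (the test statistic), and raw and adjusted p-values, under the column names of DESeq2, per the file headers. The score is opposite in sign to the fold change in every row, so directions come from the fold change and the TPM. Library sums of TPM were 991838 to 998125. The line of a library was read from its table, the rest from its column name. Depth per library is unknown.

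The raw counts were not used here. The linear models of limma 3.58.1 in R 4.3.3, with a trended variance, were fitted on log2(TPM + 1) over all genes; p-values were adjusted by Benjamini-Hochberg and called under 0.05: 4 libraries per knockout comparison, 8 per line for the culture comparisons. Fold changes on this scale understate the change of low genes. The fit was tested on simulated data. TPM is scaled within each library, so libraries of different tables were set side by side. The genes, the 13 lists (102 genes, 71 measured) and the tests were chosen with earlier results of these data known. Genes named from the lists were drawn by a rule. It takes from each list up to 3 called genes per comparison with the largest change and the 2 with the highest mean level. Not every gene that met the rule is named. For each of the 4 genes the 5 closest profiles are named, except that for SCG5 only the 3 with a symbol are. PAM, PCSK5, SYP and CHGA were named outside the rule, after their values were seen. Sequences are RefSeq's. Alternatives were a pseudocount of 0.1, median-ratio rescaling, a filter at 1 TPM in 2 libraries, a replicate block and leaving out each library.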

Additional observations from a re-analysis of the deposited data

Results flagged for a closer look

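The following pairs of differences pointed opposite ways in every library of the 2 comparisons, and the gap between them was not tested; each gap is the second log2(TPM + 1) difference minus the first, before rounding. NTSR1 was lower in knockout-labelled libraries in A549 normal culture (-0.33) and higher in A549 stem-cell-enriched culture (0.49), a gap of 0.81. It was also higher in them in H2023 normal culture (1.52), a gap of 1.85 from A549 normal culture. In knockout-labelled libraries NTSR1 was higher with enriched culture in A549 (0.77) and lower in H2023 (-1.99), a gap of -2.76.

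SCG2 was higher in knockout-labelled libraries in A549 and lower in H2023, with gaps of -2.11 in normal culture (0.52 against -1.59) and -7.35 in enriched culture (4.72 against -2.64). SCG5 was lower in H2023 normal knockout-labelled libraries (-0.46) and higher in enriched ones (0.44), a gap of 0.90. The same 8 H2023 libraries give the culture gap of SCG5, also 0.90, from -0.54 in wild type to 0.36 in knockout-labelled libraries. SCG5 stayed at or under 1.94 TPM in all of them.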

How the results depend on the processing

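Counts of called genes are given in the order A549 normal, A549 enriched, H2023 normal and H2023 enriched for genotype, then A549 wild type, A549 labelled knockout, H2023 wild type and H2023 labelled knockout for culture. limma called 1971, 2413, 0 and 0 genes between genotypes, and 7392, 3784, 3901 and 4895 between cultures. The authors' deposited adjusted p-values call 3639, 3628, 1665 and 816 between genotypes. With a filter at 1 TPM in 2 libraries, limma called 476 and 6 in the H2023 comparisons; 1, 2, 4 and 3 of the 4 genes passed it in the genotype comparisons and 2, 2, 4 and 4 in the culture comparisons. Median-ratio rescaling gave 2231 for H2023 wild-type culture. Leaving out 1 library gave 0 to 0 and 0 to 38 between A549 genotypes, and 4924 to 7113, 2010 to 3755, 1697 to 3439 and 2090 to 4973 between cultures. Replicate numbers are shared by groups, but no label says that they pair libraries. With a replicate block the counts were 2109, 2774, 0, 0, 7592, 3940, 4270 and 5401, and NTSR1 in H2023 wild-type culture (-0.56) passed (adjusted p = 0.0377), the 1 call of the 4 genes that the block changed. Same-number deviations correlated across genes at r from 0.057 to 0.51.

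Of 176 culture differences of the 4 genes recomputed under these settings, 156 kept their side of the threshold, 10 lost the call and 10 gained it. Of 112 genotype differences, 99 moved by less than the spread between replicates. That count is no measure of stability, because part of it was fixed in advance. With 2 replicates per group, leaving out 1 library cannot move a difference by more than that spread, and the block does not move it. The other 13 moved by as much or more, among them NTS at a pseudocount of 0.1 (-9.47 in A549 normal and -5.97 in H2023 enriched culture). No called difference changed sign. Differences near 0 did on leaving out 1 library: SCG5 in the 4 A549 comparisons, NTSR1 between H2023 enriched genotypes and in A549 wild-type culture, and NTS in H2023 culture with the knockout label. List counts under other settings were added after seeing the data; 483 of 560 stayed within 1.5 times.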

Other observations

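Other secreted regulatory peptides moved in both directions with culture in A549. Of 23 listed genes, 11 were measured, and with enriched culture 3 rose and 4 fell in A549 wild type, 2 rose and 4 fell in A549 knockout-labelled libraries, and 3 and 4 fell in H2023 wild-type and knockout-labelled libraries. Of all genes, 19.0% rose and 21.6% fell in A549 wild type, 10.9% rose and 9.87% fell in A549 knockout-labelled libraries, and 17.4% and 19.2% fell in H2023. The A549 knockout-labelled counts rested on single libraries: 0 rose without normal replicate 2 or enriched replicate 1 of that label and 1 without either of the other two, and 1 and 2 fell without normal replicates 1 and 2. EDN1, endothelin 1, fell in the 4 culture comparisons, in A549 wild type from 71.79 and 67.73 to 18.76 and 19.48 TPM (log2 difference -1.81, limma adjusted p = 0.000468). It was also lower in the A549 normal knockout-labelled libraries, at 19.52 and 16.49 TPM (log2 difference -1.90, limma adjusted p = 0.00518). ADM, adrenomedullin, fell in the 4 culture comparisons by log2 differences of -1.05 and -1.84 in A549 and -1.58 and -1.47 in H2023. GAL, galanin, fell in both H2023 genotypes, from 13.98 and 11.36 to 2.59 and 3.15 TPM in wild type. STC1, stanniocalcin 1, moved the other way in A549. It stood at 1.44 and 3.53 TPM in normal wild type and rose to 22.00 and 47.48 TPM with enriched culture (log2 difference 3.33, limma adjusted p = 0.000437), and it was higher in the normal knockout-labelled libraries, at 24.22 and 24.31 TPM.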
